A study of Jatropha curcas with 4 samples.

Results

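The expression of 3 genes of protein turnover was examined in roots of Jatropha curcas, the physic nut, after waterlogging. They were taken by their gene IDs, 3 of the 57437 gene models counted, and each is named here after its best match in Arabidopsis thaliana. Jcr4S00006.130 matches CIP8, a RING-H2 ubiquitin ligase, Jcr4S00022.190 matches POB1, a BTB/POZ protein, and Jcr4S00024.130 has a cystatin, which inhibits cysteine proteases, as its best match. Whole roots were taken from plants about 30 days old, either flooded for 24 h up to 3 cm above the soil (waterlogging, WS, 2 libraries) or kept for 24 h in a container holding no water (non-stress, NS, 2 libraries). All plants were raised outdoors from Thai seed and had reached the stage of 6 leaves. The study describes the libraries as independent biological replicates, and the series design speaks of pools of mRNA, with the number of plants per pool not given in the sources used here. The 3 genes were chosen by their higher counts in WS than in NS in these same libraries, so their differences between WS and NS are given as a description and not as evidence.

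In the ubiquitin pathway, an E1 enzyme activates the small protein ubiquitin, an E2 enzyme carries it, and an E3 ligase brings the E2 to the protein that is to be marked, often for breakdown by the proteasome. RING-H2 ligases bind the E2 directly, whereas many BTB/POZ proteins are the substrate-binding part of ligases built on cullin 3. In Arabidopsis, CIP8 binds the RING finger of COP1, a repressor of light responses, and works with the E2 enzyme UBC8 in vitro. POB1 of Arabidopsis, also called LRB2, takes part in the turnover of phytochrome B. Cystatins act on another branch of protein turnover, as they block papain-like cysteine proteases, which are active in senescence, defense and programmed cell death. Stability of the group VII ERF transcription factors of Arabidopsis, which act in the response to low oxygen, is itself set by a ubiquitin ligase of the N-degron pathway. None of these roles was measured here in Jatropha.

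The summed counts were 4143491 and 2531520 reads in the WS libraries, against 6110438 and 1204502 reads in the NS libraries, so that the deepest library held 5.07 times the reads of the shallowest one. Levels are given as CPM, the counts scaled to a common library size after TMM normalization, which corrects for a few abundant transcripts taking up reads. Of the gene models, 17410 reached 1 CPM in 2 or more libraries and were tested. With an adjusted p under 0.05 as threshold, the quasi-likelihood test called 427 of them up-regulated (2.45%) and 333 down-regulated (1.91%), or 760 in all (4.37%). Scaled by library totals alone, these counts were 361 and 435. ADHa, an alcohol dehydrogenase that served as a marker of low oxygen in the study, had 8042 and 11419 CPM in WS, against 215 and 184 CPM in NS, and ADHb averaged 2690 ± 1361 CPM in WS and 75.1 ± 32.1 CPM in NS (SD, n = 2 each). The 7 light reaction genes taken as markers of green tissue summed to 68.8 and 37.6 CPM in WS and to 77.1 and 65.2 CPM in NS. None of them was called by edgeR. An unadjusted p under 0.05 was found in 0 of 7, beside 9.38% of all genes higher and 10.5% lower in WS. DESeq2, limma voom and the likelihood ratio test called none of the 7. Over all genes they called 4.85%, 2.5% and 5.09% up-regulated and 4.69%, 2.51% and 6.36% down-regulated. With only 7 genes, 0 calls cannot show whether the content of green tissue differed. Root-defining markers were not analysed here. With 2 libraries against 2, a permutation test cannot give a two-sided p below 0.333, so the p-values given are those of the edgeR model over all genes tested. In bulk roots, more cells that express a gene and more RNA per cell cannot be told apart.

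The CIP8 match, Jcr4S00006.130, was the most abundant of the 3 genes in every library. It had 4209 and 4160 reads in WS, against 2081 and 428 reads in NS. This corresponded to 1123 and 1756 CPM in WS, against 319 and 325 CPM in NS. Both WS libraries stood above both NS libraries, and the lower WS value was 3.46 times the higher NS value. The NS libraries differed by a factor of 1.02 and the WS libraries by a factor of 1.56, so that the WS pair was the wider one. The means were 1439 ± 447 CPM in WS and 322 ± 3.78 CPM in NS (SD, n = 2 each). The fitted log2 fold change was 2.16 with a standard error of 0.45, or 4.47-fold, and the adjusted p was 0.0298 (edgeR, quasi-likelihood test). As the gene was chosen by its higher counts in these same libraries, this p is a description and not evidence. Leaving out WS replicate 1 or WS replicate 2 gave log2 fold changes of 2.48 and 1.77, with adjusted p-values of 3.42e-07 and 7.39e-04 from edgeR. Leaving out NS replicate 1 or NS replicate 2 gave log2 fold changes of 2.15 and 2.17 with adjusted p-values of 0.20 and 0.275, and neither of these fits called any of the 17410 genes. A fit that leaves out 1 library takes its spread from the pair of the other condition alone and assumes that the lone library varies like that pair.

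The POB1 match, Jcr4S00022.190, had an intermediate number of reads. There were 924 and 617 reads in WS, against 510 and 73 reads in NS. In CPM these were 246 and 260 in WS, against 78.2 and 55.4 in NS. The WS libraries lay within a factor of 1.06 of each other and the NS libraries within a factor of 1.41, and the groups did not overlap, since the lower WS value was 3.15 times the higher NS value. Here the WS pair was thus the closer one, whereas for the CIP8 match the NS pair was. With 2 libraries per group, these factors cannot show which condition varies more. The means were 253 ± 9.82 CPM in WS and 66.8 ± 16.2 CPM in NS (SD, n = 2 each). The log2 fold change was 1.92 with a standard error of 0.45, or 3.78-fold. The adjusted p of 0.0456 (edgeR) placed this gene near the threshold, at rank 689 of the 760 genes called. Its call was lost in 8 of 16 alternatives. Leaving out WS replicate 1 or WS replicate 2 kept the call (adjusted p of 0.0017 and 0.00349, edgeR). Its adjusted p was 0.185 when NS replicate 1 was left out and 0.36 when NS replicate 2 was.

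The cystatin match, Jcr4S00024.130, had the fewest reads and the largest fold change of the 3 genes. It had 311 and 273 reads in WS, against 91 and 10 reads in NS. The levels were 83.0 and 115 CPM in WS, against 13.96 and 7.58 CPM in NS. The lower WS value was 5.94 times the higher NS value, and within a group the values differed by a factor of 1.39 in WS and 1.84 in NS. The count of 10 reads in NS replicate 2 has an exact 95% Poisson interval of 4.795 to 18.4 reads, which covers counting error only and corresponds to 3.64 to 13.9 CPM. NS replicate 1, with 13.96 CPM and an interval of 11.2 to 17.1 CPM, thus overlapped it. The means were 99.1 ± 22.8 CPM in WS and 10.8 ± 4.51 CPM in NS (SD, n = 2 each). The log2 fold change was 3.15 with a standard error of 0.57, or 8.86-fold, with an adjusted p of 0.017 (edgeR). The log2 fold change was 3.395 without WS replicate 1 and 2.87 without WS replicate 2 (adjusted p of 1.54e-05 and 0.00133, edgeR). Without NS replicate 1, the shallow library was the only NS sample and the log2 fold change was 3.70 (adjusted p = 0.11), and without NS replicate 2 it was 2.82 (adjusted p = 0.188).

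**Figure D1:**
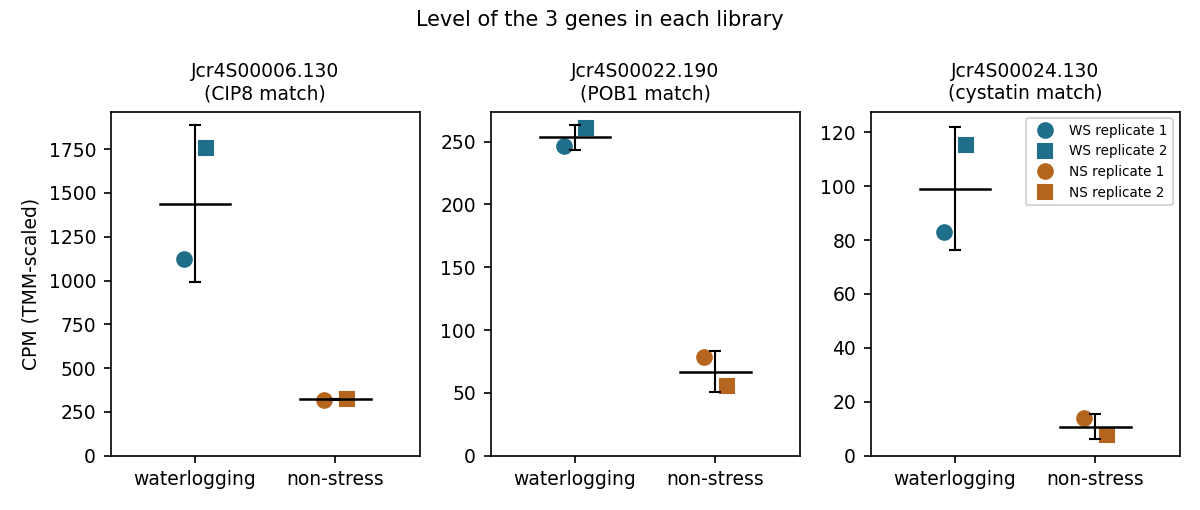
Level of each gene in CPM (TMM-scaled, linear axis from 0) in the 2 WS and the 2 NS libraries, with circles for replicate 1 and squares for replicate 2, black lines for the means and bars for the SD (n = 2). Every WS point lies above every NS point of the same gene, by at least 3.15 times for the POB1 match and 5.94 times for the cystatin match.

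Among the 427 up-regulated genes, which had already passed the threshold, the ligase genes stood near the low end and the cystatin match nearer to the middle. Ordered by log2 fold change, the cystatin match was at place 297, the CIP8 match at place 403 and the POB1 match at place 421 of 427. Over all 17410 genes tested, the cystatin match was at place 633, the CIP8 match at 1187 and the POB1 match at 1453. A count of genes in which both WS libraries exceed both NS libraries gave 4473 of the 17410 genes (25.7%), so non-overlap alone is common in these data.

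Levels of different genes were compared per kilobase of coding length. In WS the CIP8 match had 1322 ± 411 CPM per kilobase, the cystatin match 295 ± 67.9 and the POB1 match 153 ± 5.93 (SD, n = 2 each). In NS the CIP8 match had 296 ± 3.47 CPM per kilobase, the POB1 match 40.3 ± 9.77 and the cystatin match 32.1 ± 13.4. The CIP8 match came first in both conditions, at place 107 of the 17410 genes in WS and place 515 in NS. The cystatin match stood above the POB1 match in both WS libraries, with 247 and 343 against 149 and 157 CPM per kilobase. In NS these genes overlapped across libraries, with 41.5 and 22.6 CPM per kilobase for the cystatin match and 47.2 and 33.4 for the POB1 match. Within each NS library the POB1 match stood higher. As the cystatin match had only 91 and 10 reads in NS, their order there was not resolved. The cystatin match was at place 672 in WS and place 5478 in NS, and the POB1 match at place 1308 in WS and place 4522 in NS. Per kilobase of the whole model, introns included, the POB1 match had 17.99 CPM per kilobase in NS and stood below the cystatin match, because only its model holds introns.

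The ratio of the reads of 2 genes within a library does not depend on library size or scaling. The CIP8 match had 13.5 and 15.2 reads per read of the cystatin match in WS, against 22.9 and 42.8 in NS. For the POB1 match there were 2.97 and 2.26 reads per read of the cystatin match in WS, against 5.60 and 7.30 in NS. Relative to either ligase gene, the cystatin match thus took a larger share in both WS libraries than in both NS libraries. These ratios rest on the same counts by which the 3 genes were chosen. On the NS side, the cystatin match had only 91 and 10 reads. How often such ratios fail to overlap among other pairs of genes was not computed. The CIP8 match had 4.56 and 6.74 reads per read of the POB1 match in WS, against 4.08 and 5.86 in NS, and here the groups overlapped.

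**Figure D2:**
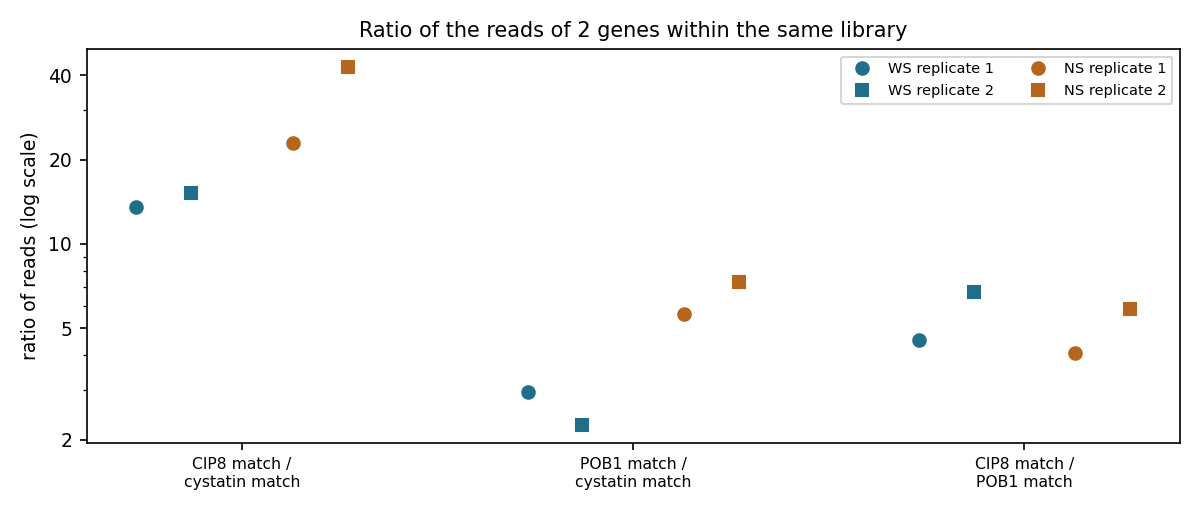
Ratio of the reads of 2 genes within a library (log axis) for 3 pairs of genes, with WS libraries to the left of NS libraries. The ratio of the CIP8 match to the POB1 match overlaps between WS (4.56 and 6.74) and NS (4.08 and 5.86), while the ratios of both ligase genes to the cystatin match do not overlap. In NS the cystatin match had 91 and 10 reads.

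The 3 models differ in structure. In the deposited annotation of genome release 4.5, the CIP8 match lies on the plus strand of scaffold Jcr4S00006 from 66147 to 67235 as a single coding exon of 1089 bases (363 codons). The cystatin match lies on the minus strand of scaffold Jcr4S00024 from 88811 to 89146, also as a single coding exon, of 336 bases (112 codons). The POB1 match lies on the plus strand of scaffold Jcr4S00022 from 87775 to 91487, with 6 coding exons that sum to 1656 bases (552 codons). Single-exon models made up 16.2% of the models tested, and 9.20% of them had a coding length of at most 336 bases, against a median of 1047 bases. No other model overlapped any of the 3 genes on either strand, and none of the 3 carries a note such as short, partial, pseudo or TE (transposable element) in the annotation. Whether near-identical copies elsewhere shared reads with them was not tested. No sequence is printed, since the tables used here hold coordinates only for these models.

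The models next to the 3 genes on their scaffolds were looked up as well. On Jcr4S00006, the model 2165 bases before the CIP8 match is Jcr4S00006.120, a short model matching a protein of unknown function, with 15.5 and 24.5 CPM in WS, against 13.04 and 8.34 CPM in NS (log2 fold change 0.87, standard error 0.72, adjusted p = 0.572 from edgeR). On the other side, 4327 bases away and on the opposite strand, Jcr4S00006.140 matches a protein with a domain of the transcription elongation factor TFIIS. It had 151 and 119 CPM in WS, against 64.1 and 32.6 CPM in NS (log2 fold change 1.47, standard error 0.50, adjusted p = 0.145). Jcr4S00006.110, which matches the endoplasmic reticulum chaperone GRP94, had 132 and 177 CPM in WS, against 377 and 446 CPM in NS (-1.41 ± 0.43 on the log2 scale, SE, with an adjusted p of 0.107 from edgeR), a sign opposite to that of the CIP8 match. Jcr4S00006.150, a kinesin gene, had a log2 fold change of 0.14.

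Near the POB1 match, the described model 1065 bases after it, Jcr4S00022.200, matches a translation initiation factor and had 8.54 and 6.75 CPM in WS, against 3.83 and 3.79 CPM in NS (log2 fold change 1.00, standard error 1.01, adjusted p = 0.659 from edgeR). Jcr4S00022.170 had a log2 fold change of -0.68. The model just before the POB1 match, Jcr4S00022.180, had 0 and 2 reads in WS, against 10 and 0 reads in NS, too few to be tested. Further out, Jcr4S00022.160 matches HAWAIIAN SKIRT, an F-box protein of a ubiquitin ligase that acts in organ development in Arabidopsis. By their locus numbers, HAWAIIAN SKIRT (at3g61590) and POB1 (at3g61600) are next to each other in Arabidopsis too. In Jatropha the HAWAIIAN SKIRT match lies 16180 bases from the POB1 match on the same strand, with 35.2 and 21.5 CPM in WS, against 17.9 and 9.86 CPM in NS. Its log2 fold change was 1.00 with a standard error of 0.66 and an adjusted p of 0.457 (edgeR).

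Next to the cystatin match, Jcr4S00024.120 is a transposable element model with 4 and 2 reads in WS and none in NS, and it was not tested. Jcr4S00024.140, 7369 bases away on the same strand, matches a DNAse I-like protein and had 138 and 119 CPM in WS, against 95.4 and 55.4 CPM in NS (log2 fold change 0.76, standard error 0.47, adjusted p = 0.423 from edgeR). Jcr4S00024.110, which matches MEE59 of Arabidopsis, a gene named for arrested embryos, had 6.67 and 17.7 CPM in WS, against 1.69 and 1.52 CPM in NS (log2 fold change 2.87, standard error 1.09, adjusted p = 0.183). Jcr4S00024.150 had a log2 fold change of 0.67. None of the neighbours tested on the 3 scaffolds passed the adjusted threshold of edgeR, which 4.37% of all genes tested passed. With so few neighbours, this does not set them apart from other genes.

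**Figure D3:**
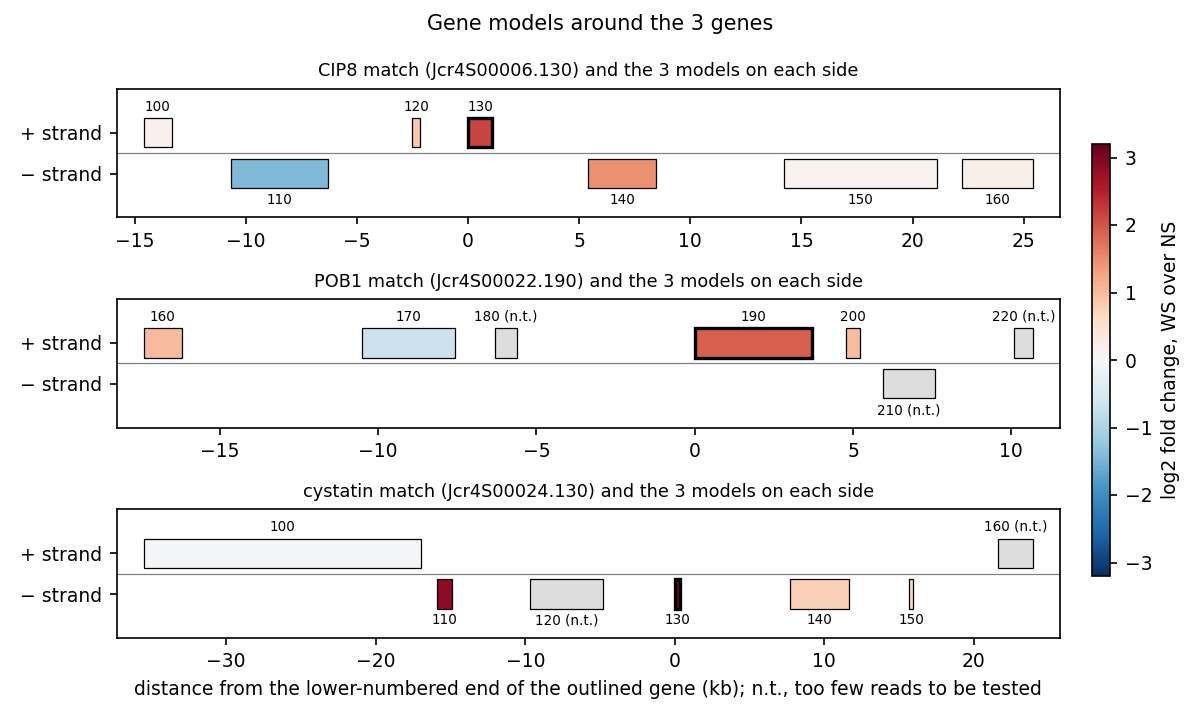
Gene models on the 3 scaffolds, drawn to scale by distance in kb from the lower-numbered end of the named gene (thick outline), above the line for the plus and below it for the minus strand, labelled by the last part of the ID and coloured by log2 fold change of WS over NS (grey, not tested). The CIP8 match is flanked by Jcr4S00006.140 with a log2 fold change of 1.47, while Jcr4S00006.110 has -1.41.

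To place the 3 genes among others of protein turnover, 39 genes were taken by their descriptions from the 665 genes that the supplementary annotation used here describes. Of these, 28 stand in the bin for protein degradation and 11 in other bins. All 39 lie on scaffolds Jcr4S00001 to Jcr4S00037, so they are no survey of all the protein turnover genes tested. The annotation describes genes that had passed the same filter on low counts as used here, so that all 39 were tested by construction. The 3 genes, chosen for being higher in WS, were left out of the 39, whereas the shares of all genes keep every called gene. Counts among the 39 therefore cannot show the 3 genes to be exceptions. In edgeR's quasi-likelihood fit, 0 of the 39 were up-regulated and 0 down-regulated, beside 2.45% and 1.91% of all genes. At an unadjusted p under 0.05, 1 was higher and 4 were lower in WS, beside 9.38% and 10.5% of all genes. DESeq2 called 1 up-regulated and 1 down-regulated (4.85% and 4.69% of all genes). The likelihood ratio test of edgeR called 0 and 1 (5.09% and 6.36%), and limma voom 0 and 0 (2.5% and 2.51%). With WS replicate 2 left out, the quasi-likelihood test called 1 of the 39 up-regulated and 4 down-regulated, beside 6% and 7.17% of all genes. The median log2 fold change of the 39 genes was 0.02, beside 0.01 over all genes tested, and 13 genes had both WS libraries above both NS libraries and 9 had both below (25.7% and 26.8% of all genes). Their summed level was 2509 and 2327 CPM in WS, against 2137 and 2034 CPM in NS.

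Of the 4 E2 genes, 3 had log2 fold changes close to each other. Jcr4S00001.80 and Jcr4S00022.280 both match UBC9 of Arabidopsis, which belongs to the same E2 subfamily as UBC8, the partner of CIP8. Jcr4S00001.80 had 477 and 526 CPM in WS, against 258 and 295 CPM in NS (log2 fold change 0.86, standard error 0.41, adjusted p = 0.286 from edgeR). Jcr4S00022.280 had 92.6 and 161 CPM in WS, against 80.7 and 54.6 CPM in NS (log2 fold change 0.90, standard error 0.49, adjusted p = 0.358). For both genes the WS libraries stood above the NS libraries, an order found in 25.7% of all genes tested, and neither gene passed the threshold. Jcr4S00003.60, which matches UBC20, an E2 found in dividing cells of Arabidopsis, had 20.3 and 92.0 CPM in WS, against 140 and 117 CPM in NS. The log2 fold change of this gene was -1.20 with a standard error of 0.66 and an adjusted p of 0.36.

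Of the 10 other RING and U-box genes, none was called by the quasi-likelihood test, and 5 had log2 fold changes above 0, as did 50.2% of all genes. The lowest value belonged to Jcr4S00008.110, a RING/U-box gene with no read in either WS library, against 39 and 2 reads in NS. Set against a floor of 3 reads per WS library, 1.03 CPM on average, the NS mean of 3.75 CPM was 3.63 times higher. That mean rests mostly on NS replicate 1 (5.98 CPM), as the 2 reads of NS replicate 2 (1.52 CPM) lie below the same floor. The adjusted p was 0.136 with the quasi-likelihood test and 0.00128 with the likelihood ratio test of edgeR. DESeq2 and limma voom did not call this gene. Jcr4S00017.130 matches a ligase that limits the size of floral organs in Arabidopsis and had 11.5 and 27.4 CPM in WS, against 51.5 and 90.99 CPM in NS (log2 fold change -1.87, standard error 0.62, adjusted p = 0.13). The highest value was that of Jcr4S00034.160, with 10.4 and 2.95 CPM in WS, against 2.76 and 2.27 CPM in NS (log2 fold change 1.39, standard error 1.16, adjusted p = 0.576). The CIP8 match, at 2.16, lay above all 10. It was chosen for being higher in WS, so this order follows in part from the choice.

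F-box proteins are the substrate-binding part of SCF ligases, and 8 such genes were in the list. Jcr4S00016.20, a kelch repeat F-box gene, had 507 and 145 CPM in WS, against 67.0 and 81.9 CPM in NS, and its WS libraries differed far more than its NS libraries. The log2 fold change was 2.13 ± 0.61 (SE), with an adjusted p of 0.0866 from edgeR and 0.0148 from DESeq2. The likelihood ratio test of edgeR and limma voom did not call Jcr4S00016.20. Jcr4S00007.180 had the highest log2 fold change of the F-box genes, 2.71 ± 1.39 (SE, adjusted p = 0.325), with 12 and 41 reads in WS, against 16 and 0 reads in NS. The lowest was that of Jcr4S00027.100, which matches the phloem protein PP2-B13, at -1.52 ± 0.78 (SE, adjusted p = 0.322), with 5.60 and 9.28 CPM in WS, against 28.2 and 13.6 CPM in NS.

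The 4 other BTB/POZ genes had lower fold changes than the POB1 match, which was itself chosen for being higher in WS. Jcr4S00008.60, an NPH3 family gene, had the highest value of them, 0.10 ± 0.56 on the log2 scale (SE, adjusted p = 0.956 from edgeR), with 42.9 and 111 CPM in WS, against 59.1 and 84.9 CPM in NS. Jcr4S00007.90 matches BPM2, a cullin 3 adaptor of Arabidopsis, and its groups overlapped, with 94.7 and 63.7 CPM in WS, against 96.9 and 59.9 CPM in NS (log2 fold change 0.01, standard error 0.49, adjusted p = 0.994). Jcr4S00013.190, also of the NPH3 family, had 84.0 and 132 CPM in WS, against 283 and 259 CPM in NS (log2 fold change -1.33, standard error 0.45, adjusted p = 0.137). The 3 genes for WD40 proteins of CUL4 ligases ranged from 0.42 (Jcr4S00005.280) to 0.77 (Jcr4S00007.470) on the log2 scale, and none passed.

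The remaining genes of the list act beyond the ligases. Of 7 genes for proteases and other degradation, Jcr4S00009.190, which holds a domain of unknown function, had 17.9 and 31.7 CPM in WS, against 86.4 and 104 CPM in NS. On the log2 scale it differed by -1.94 ± 0.52 (SE), with an adjusted p of 0.0736 from edgeR and 0.0278 from DESeq2. Neither the likelihood ratio test of edgeR nor limma voom called it. Jcr4S00036.240, matching the autophagy protein ATG18G, had the highest value of the 7, with 129 and 136 CPM in WS, against 94.6 and 62.9 CPM in NS (log2 fold change 0.74, standard error 0.45, adjusted p = 0.417). Apart from the cystatin match itself, the bin for cysteine proteases had no gene in the rows used here, so the proteases that a cystatin could inhibit were not analysed here. The 3 other ubiquitin-related genes ranged from -0.07 (Jcr4S00008.360) to 0.98 (Jcr4S00037.210) on the log2 scale and did not pass.

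**Figure D4:**
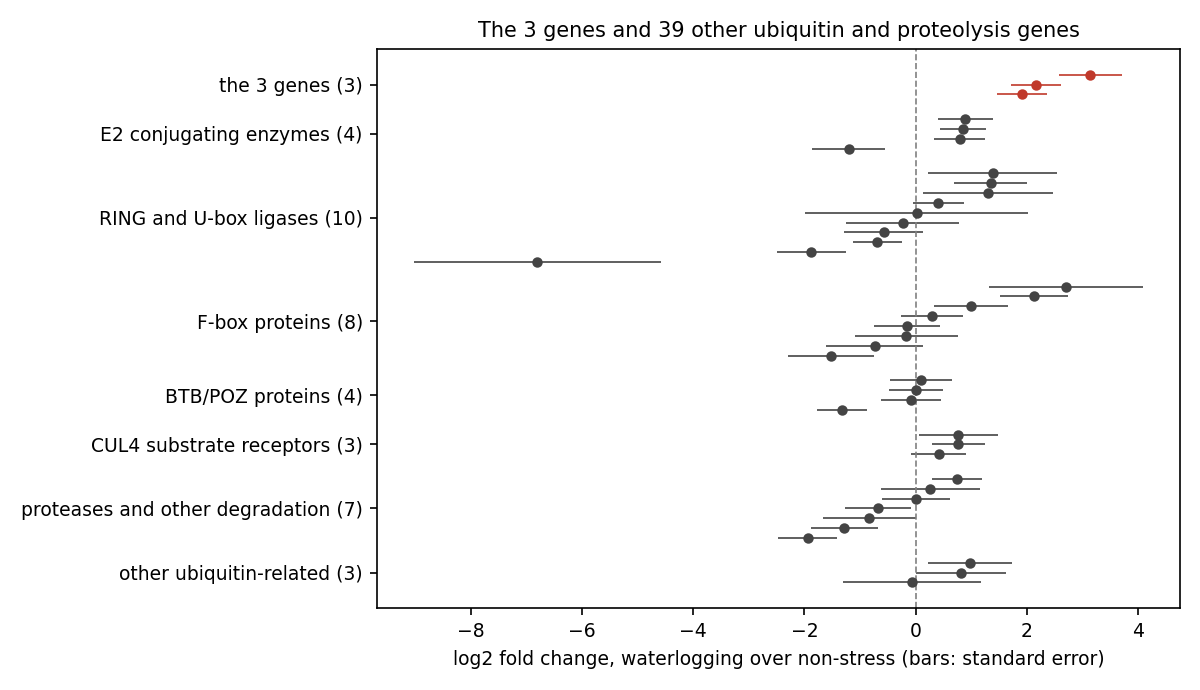
Log2 fold change of WS over NS with its standard error for the 3 genes (red, chosen for being higher in WS) and for the 39 other genes of ubiquitin and proteolysis by role (dark grey, numbers of genes in parentheses). None of the 39 passed the quasi-likelihood test, and the point at -6.80 is Jcr4S00008.110, which had no read in WS.

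The genes most like each of the 3 in their pattern were looked up by the root mean square difference of log2(CPM + 1) over the 4 libraries, after each gene was centred on its own mean. Among the 17409 others tested, Jcr4S00100.30 was nearest to the POB1 match, at a difference of 0.00948 against a median of 1.12. It had 153 and 159 CPM in WS, against 47.9 and 34.1 CPM in NS, followed by Jcr4S12871.10 at 0.0547. Nearest to the CIP8 match were Jcr4S08431.30 and Jcr4S05246.20, at 0.0265 and 0.0625, but neither had a read in NS and both stayed under 5 CPM in WS, so that their distance rests on the pseudocount of 1 CPM. Nearest to the cystatin match were Jcr4S03895.30 and Jcr4S01763.70, at 0.128 and 0.143. In NS, Jcr4S03895.30 had 2.45 and 0.76 CPM and Jcr4S01763.70 had 1.38 and 0.76 CPM, so the pseudocount weighs in these distances too. The supplementary annotation used here holds no description of these 6 genes.

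The search was repeated among the described genes, 664 besides each of the 3, against 17409 above, so genes without a description could not appear. Nearest to the CIP8 match among them were Jcr4S00011.190, which matches a Dicer homolog of microRNA processing, and Jcr4S00021.280, which matches an aspartate aminotransferase. Jcr4S00011.190 had 200.1 and 222 CPM in WS, against 49.1 and 46.3 CPM in NS, at a difference of 0.18. Jcr4S00021.280 had 442 and 515 CPM in WS, against 101 and 136 CPM in NS, at 0.212. For the POB1 match they were Jcr4S00024.10, matching a class I small heat shock protein, at 0.144, and Jcr4S00034.80, matching the DREB-type factor TINY2, at 0.17. Jcr4S00034.80 had 7.47 and 7.17 CPM in WS, against 2.30 and 0.76 CPM in NS, so the pseudocount weighs in its distance. For the cystatin match the nearest described genes were Jcr4S00011.160, matching a disease resistance protein with an NB-ARC domain, at 0.444, and Jcr4S00037.150, which has no match, at 0.518. Jcr4S00011.160 had only 1.99 and 1.52 CPM in NS. Among the 3 genes themselves, the CIP8 and POB1 matches were nearest to each other, at 0.287, and the cystatin match was at 0.583 from the CIP8 match and at 0.623 from the POB1 match. With a pseudocount of 5 CPM, only 2 of the 12 nearest genes were the same.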

How the data were processed

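Per the labels and the methods of the study, the authors filtered reads to at least 35 nt and a quality of 17, mapped them with TMAP to Jatropha genome release 4.5 and deposited raw counts per gene model made with HTSeq. HTSeq and edgeR are the tools in the submitters' processing notes. Their versions, the strand setting and the treatment of reads with several places are not given in the sources used here. The deposited models also give positions, with other values such as a score left aside, and the deposited table of the authors' own comparison (log2 fold changes, likelihood ratios, p-values and CPM) was not used.

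Counts of models that reached 1 CPM in 2 or more libraries were compared with edgeR 4.0.16 in R 4.3.3 (TMM, estimateDisp, glmQLFit, glmQLFTest, two-sided, no covariate, Benjamini-Hochberg adjustment over all 17410 models, threshold 0.05). The quasi-likelihood test replaced the likelihood ratio test of the study. The script was tested on simulated data. Standard errors are the log2 fold change over the root of F. DESeq2 1.42.0 and limma 3.58.1 served as alternatives, beside other scalings and filters, equal depth, a replicate block and each library left out. Python 3.11.15 with pandas 2.3.3 made summaries and figures.

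The 3 genes and the lists were chosen with earlier results of these data known. Other genes named are, in each list, those with the highest and lowest log2 fold change, both UBC9 matches, HAWAIIAN SKIRT, ADHa, ADHb, scaffold neighbours and the 2 genes nearest in pattern. UBC20, Jcr4S00017.130, Jcr4S00016.20 and BPM2 were named after seeing their values. The RefSeq table matched 0 of the IDs, so names are best matches from the study's supplementary annotation. A result on 1 further gene is not reported here.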

Additional observations from a re-analysis of the deposited data

How the results depend on the processing

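Under 15 other settings and 1 more chosen after seeing the data, the 3 genes kept a log2 fold change above 0. It ranged from 1.77 to 2.48 for the CIP8 match, from 1.69 to 2.19 for the POB1 match and from 2.82 to 3.70 for the cystatin match, and in the fits that leave out 1 library from 1.77 to 2.48, 1.70 to 2.19 and 2.82 to 3.70. The POB1 match missed the threshold of 0.05 with upper quartile scaling (1.90, adjusted p = 0.051), total library size (1.69, 0.0645), a mean count of at least 10 (1.93, 0.0519) and the likelihood ratio test (1.92, 0.0575). At equal depth, a single random thinning to the smallest total, the CIP8 match (2.13, adjusted p = 0.0603) and the POB1 match (1.94, 0.0676) missed it. Over 10 further thinnings, added after seeing the data, the CIP8 match passed in 7, the POB1 match in 2 (median 1.91, adjusted p = 0.0596) and the cystatin match in 10. Total library size moved the median of all log2 fold changes to -0.22, against 0.01 with TMM, and leaving out NS replicate 1 moved it to 0.21.

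The numbers of genes called up-regulated and down-regulated, 427 and 333, were 966 and 997 with no filter, 886 and 1108 with the likelihood ratio test, 844 and 816 with DESeq2, 258 and 159 at equal depth, and 0 to 1045 and 0 to 1248 without 1 library, where leaving out NS replicate 1 or NS replicate 2 gave 0 calls, beside 3133 and 2048 genes with an unadjusted p under 0.05. The list of 39 genes, with 0 up-regulated and 0 down-regulated, had 1 and 2 with no filter, 1 and 1 with DESeq2, 0 and 1 with the likelihood ratio test, and 0 to 1 and 0 to 4 without 1 library. With a replicate block, the counts were 802 and 882 over all genes and 1 and 2 in the list. The replicate numbers are only numbers, since the labels tie them to nothing shared, and the deviations of equally numbered libraries correlated at 0.0913. Per kilobase of the whole model the NS level of the POB1 match was 17.99 in place of 40.3, and 2 of 12 nearest genes were kept with a pseudocount of 5 CPM. The 10 reads of the cystatin match in the shallowest library limit the precision of its NS level.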
